A study of Mus musculus with 8 samples.

Results

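Of the 55681 mouse probes on the array, 15604 (28.0%) are named for a stretch of chromosome and a strand in place of a gene, and they are described here. They were chosen by name alone, as non-control probes whose systematic name gives a chromosome from 1 to 19, a start, an end and the suffix F or R. Probes of this kind were designed for long intergenic noncoding RNAs, and F and R mark opposite strands of an interval. Coordinates are given as in the probe names, and the file headers name mm9 as the genome build. Genes of that build were not used here, so whether each interval lies between genes, in an intron or over an exon was not checked.

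Long noncoding RNAs are transcripts without a protein product. Many are kept at lower levels than messenger RNAs and are made in few cell types, and some run antisense to another transcript over the same DNA. Neutrophils are short-lived white blood cells that mature in the bone marrow and are the first cells to reach infected tissue. ATF3 belongs to the ATF/CREB transcription factors, is switched on by stress, and is known for holding back inflammatory genes.

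The series compares 4 WT with 4 ATF3 KO samples of bone marrow cells from C57BL/6 mice, selected for Ly6G, a surface protein of mouse neutrophils, with magnetic beads. Its title places it in a study of neutrophil migration. Each sample was hybridised in a single colour to its own array. The labels give neither the age of the animals nor the ATF3 allele, and they do not say that the 4 samples of a genotype came from separate animals, so the p-values measure the spread between these samples. The description field of 7 samples speaks of culture, whereas the design text has RNA taken directly after purification. This conflict was not resolved. All 8 arrays lay on 1 slide, with WT in row 1 and ATF3 KO in row 2, so the row of the slide and the genotype cannot be told apart.

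The cells carried high levels of neutrophil genes. In units of log2 signal relative to the 75th percentile of the array, which are used for all levels here, the granule and calprotectin genes S100a8, S100a9, Camp and Ltf lay at 10.28, 10.66, 10.72 and 10.39 in WT and at 10.63, 11.04, 11.08 and 10.70 in ATF3 KO. Elane and Mpo, also on the list of neutrophil markers, were lower, at 1.36 and 3.82 in WT. Some genes listed for other cell types were high as well. In WT, Hba-a1 of erythroid cells lay at 10.80, Siglech of dendritic cells at 8.55 and Csf1r of monocytes and macrophages at 7.12. All 14 neutrophil markers on the array by name were tested, none passed the limma test between genotypes, and Ly6g itself was not among the names. The Atf3 probe did not show a loss of its RNA. Its level was 0.73 ± 0.07 for WT against 1.24 ± 0.27 for ATF3 KO (SD, n = 4 each), a difference of 0.51 with a limma adjusted p of 0.121. Whether that probe lies in a deleted part of the gene is not known. The genotypes are therefore those of the labels, and each direction below is that of the samples labelled ATF3 KO against those labelled WT. WT arrays were somewhat brighter as a whole, with a 75th percentile of processed signal of 186 ± 33.8 against 141 ± 21.3 on ATF3 KO arrays (SD, n = 4 each), a gap not beyond the spread (two-sided exact permutation p = 0.0857).

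The 15604 probes cover 3387 intervals, and 1042 of these have probes on both strands while 2345 have them on 1 strand. There are 2231 strands with F and 2198 with R, 4429 in all, each with 1 to 10 probes (median 3). The intervals run from 62 to 7128487 bp with a median of 7451 bp, and only 1 is longer than 1 Mb. Many describe the same DNA more than once. An overlap with another interval was found for 2015 of the 3387 (59.5%), and 972 lay wholly inside a longer one. No probe among the 15604 could be given a gene symbol through its name. A further 577 probes on the X chromosome and 13 named by chromosome without a strand were left out.

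About 1 in 3 interval probes gave a signal well above background in these cells. A probe counts as detected on an array when the scanner software marks it as well above the local background. By the scanner's looser mark, a positive and significant signal, the share ran from 64.1% on ATF3 KO replicate 4 to 74.9% on WT replicate 1. Of the 15604 probes, 3763 (24.1%) were detected on all 8 arrays, 8157 (52.3%) on none, and 3684 on 1 to 7 arrays. Detection on at least 4 arrays, which was asked of a probe before it was tested, held for 5269 probes (33.8%). On the 4 WT arrays 40.1%, 36.0%, 34.1% and 29.3% of the probes were detected, and on the 4 ATF3 KO arrays 33.9%, 38.6%, 29.7% and 29.1%. The groups overlapped, with a mean of 34.9% ± 4.51 for WT against 32.8% ± 4.41 for ATF3 KO (SD, n = 4 each). The difference of -2.10 percentage points was within the spread of the arrays (two-sided exact permutation p = 0.486, where 4 against 4 arrays cannot go below 0.0286).

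On every array the interval probes were detected less often than probes for known transcripts. Probes with an NM accession, which stand for protein-coding transcripts, were detected at 63.2% ± 3.14 in WT and 61.1% ± 2.60 in ATF3 KO. Probes with an NR accession, which stand for noncoding transcripts in RefSeq, were detected at 41.0% ± 4.11 and 38.7% ± 3.24 (SD, n = 4 each). Within an array the share for interval probes minus that for NM probes ran from -29.9 to -25.4 percentage points, with a mean of -28.3 ± 1.59 (SD, n = 8 arrays). Minus the share for NR probes it ran from -7.18 to -4.03 points, with a mean of -6.01 ± 1.05. Both differences had the same sign on 8 of 8 arrays (two-sided exact paired permutation p = 0.00781 each, the smallest that 8 arrays allow). The same probes lie on every array, so these p-values measure how steady the gaps are between arrays, not the spread between probes. Both gaps depended on the mark used for detection. With the scanner's looser mark, a signal that is positive and significant, the gap to the NM probes was -13.0 points (exact paired permutation p = 0.00781) and that to the NR probes -0.418 points (exact paired permutation p = 0.273).

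Detection was uneven among the intervals. By chromosome it ranged from 23.9% of interval probes on chromosome 9 to 43.5% on chromosome 19. By length of the interval, it was 29.9% up to 5226 bp, 34.2% from there to 13126 bp, 35.0% to 30101 bp and 36.0% beyond, with about equal numbers of probes in each class. R probes were detected at 35.1% and F probes at 32.4% over the criterion of 4 arrays. Within each array, F minus R ran from -4.06 to -1.84 percentage points, with a mean of -2.82 ± 0.791 (SD, n = 8 arrays, same sign on 8 of 8, two-sided exact paired permutation p = 0.00781). Here too the arrays carry the same probes, and the p-value does not measure the spread between probes.

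Probes of a single strand often disagreed on detection. Of the 3258 strands with 3 or more probes, 357 had every probe detected on at least 4 arrays, 1219 had none, and 1682 had some. A long interval can hold a transcript over only some of its length, and its name does not say where in the interval each probe lies. The probe with the highest mean signal was taken to stand for its strand, and this left 2591 strands with a detected probe and 1838 without. All counts of tests below are over those 2591, and the 1838 have no test.

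Turning to strands, the 1042 intervals with probes on both could be sorted by which strand was detected. Both strands were detected on at least 4 arrays in 501 intervals (48.1%), F alone in 181, R alone in 207, and neither in 153 (14.7%). Detection of a single strand thus held for 388 intervals (37.2%). On the strictest reading, 139 intervals had a strand detected on all 8 arrays while the other strand's probe was detected on none, with F as the detected strand in 57 and R in 82. The sorting did not differ between the genotypes beyond the spread of the arrays. Both strands were detected in 49.0% ± 6.27 of the 1042 intervals on WT arrays and in 45.3% ± 5.25 on ATF3 KO arrays (SD, n = 4 each, exact permutation p = 0.457). Exactly 1 strand was detected in 36.9% ± 3.35 and 38.0% ± 2.21 (exact permutation p = 0.629).

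The sorting rests on the brightest probe of each strand, and strands have up to 10 chances to show one. Among the 728 intervals with at least 3 probes on each strand, 5 had every F probe and no R probe detected, 19 had every R probe and no F probe, and 7 had every probe of both. The looser detection mark put 914 of the 1042 intervals in the class with both strands and 119 in the class with 1 strand.

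The 6 intervals with the highest signal among those detected on 1 strand only held 3 of each orientation. At chr3:87757295-87774970 the F level was 6.42 over the 8 arrays (lowest 5.93, highest 6.68) and the R level was -4.55 (lowest -5.57, highest -3.51). All 5 F probes of that interval and none of its 5 R probes were detected on at least 4 arrays. At chr11:35805295-35817263, with 1 probe a strand, F lay at 6.22 and R at -5.47. These levels come from different probes with their own hybridisation strength, so the size of the gap is not a ratio of RNA amounts. The R values are not well above background.

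In the same group, chr4:141527564-141547339 had F at 4.95 and R at -5.44, with 1 probe a strand. The remaining 3 had R as the detected strand. At chr1:193875525-193978800 the R level was 4.11 (lowest 3.74, highest 4.34) with 2 of 2 probes detected. None of its 5 F probes was detected on 4 arrays, the brightest lying at -3.96. A shorter interval inside it, chr1:193923014-193923346, did have F signal detected on all 4 WT arrays, as given below. The sorting takes no account of overlapping intervals. At chr1:52507332-52514490 R lay at 4.06, with 3 of 4 probes detected, and F at -4.53. At chr13:28477490-28985604, an interval of 508115 bp, R lay at 3.57 with only 1 of 6 probes detected, and F at -3.55. Of these 6, only chr3:87757295-87774970 had more than 2 probes on each strand with every probe of a strand detected.

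Other intervals gave strong signal on both strands. The 6 with the highest signal on the weaker strand were led by chr12:73838608-73862621, with F at 6.54 (lowest 6.03, highest 6.88) and R at 7.81 (lowest 7.50, highest 8.14), detected by 2 of 5 F probes and 3 of 5 R probes. At chr19:53517903-53540753, 9 of 10 F probes and 10 of 10 R probes were detected, with F at 4.08 and R at 3.22. At chr5:35975265-35982561 all 4 probes of each strand were detected, with F at 2.71 and R at 4.11. In these intervals probes spread over both strands responded, not a single probe.

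The other 3 had R at the higher signal. F and R lay at 3.55 and 7.88 at chr7:108209996-108216032, at 2.88 and 7.88 at chr6:4841700-4847400, and at 3.43 and 6.54 at chr6:129151512-129208737, where 5 of 10 F and 9 of 10 R probes were detected. None of these 6 intervals differed between genotypes in the balance of its strands (limma adjusted p from 0.447 to 0.986), and WT and ATF3 KO overlapped in each.

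Over the 501 intervals with both strands detected, the levels of F and R were set side by side as a description. Across intervals Pearson's r was 0.148 and Spearman's rho 0.130, and the points share the same 8 arrays. F and R signals lay within 1 log2 unit of each other in 170 of the 501 intervals and more than 4 apart in 84, with a median gap of 1.58. F had the higher signal in 253 and R in 248.

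Turning to the genotypes, few interval strands differed in a way the test could call. The test was limma's moderated test on all 21251 features of the array (1 probe for each gene, accession or interval strand), with Benjamini-Hochberg adjustment over all of them. It called 6 of the 2591 interval strands higher in ATF3 KO, where the share of all features called higher is 0.367%, and 2 lower, where the share of all features is 0.08%. Both directions together came to 0.309% of interval strands and 0.447% of all features, and this gap was not tested. The share differed between the other classes. It was 0.232% for NM features (30 of 12904), and 0 of 420 NR features were called. Of 1381 features with an ENSMUST name, 33 (2.39%) were called, all higher. An unadjusted limma p under 0.05 was reached by 371 interval strands (14.3%) in the higher direction, where the share of all features is 9.37%, and by 163 (6.29%) in the lower, where it is 14.5%. More interval strands leaned higher than lower, and more features of the array as a whole leaned lower than higher. Both directions, and the shares beside them, depend on the scaling, since another percentile shifts all differences alike. With the percentile over probes detected on every array, the difference at chr17:17481706-17482457 moved from -0.05 to 0.10. The count of called strands was unstable against single arrays. It was 0, 1, 0 and 5 without WT replicate 1, 2, 3 and 4, and 21, 2, 27 and 2 without ATF3 KO replicate 1, 2, 3 and 4. Another scaling of the arrays changed the split: 2 higher and 2 lower after quantile normalization, and 1 higher and 2 lower when only probes detected on every array set the percentile.

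The balance of small differences was unlike that of the array as a whole. The median difference of interval strands was 0.04, against -0.11 over all features, a gap of 0.15, and 54.1% of interval strands were higher in ATF3 KO against 34.5% of all features. Strands whose 4 ATF3 KO values all lay above the 4 WT values made up 5.33% of intervals (138 strands), where 4.13% of all features did so. The opposite order held for 3.40% (88 strands), where it held for 10.9% of all features. The protein-coding NM features had a median of -0.15, with 24.2% higher in ATF3 KO. The NR features had a median of -0.02 with 46.7% higher, and the ENSMUST features one of -0.002 with 49.6% higher. All 4 ATF3 KO values lay above the 4 WT values for 4.76% of NR and 9.27% of ENSMUST features. An unadjusted limma p under 0.05 in the higher direction was reached by 14.3% of NR and 19.3% of ENSMUST features. The lean was thus not particular to the intervals.

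Another percentile for scaling shifts all differences alike, and the gap varied with signal level. Interval strands had a median level of -1.33 and NM features of 1.11. At levels up to -2 the median difference was 0.06 for 857 interval strands and 0.02 for the 3223 other features. From -2 to 0 it was 0.09 against -0.04, and from 0 to 2 it was -0.02 against -0.15. Above 2 it was -0.13 for 244 interval strands and -0.16 for 6836 other features. In every band the interval median was the higher. As a value per array, the median level of interval probes detected on all 8 arrays averaged -1.10 ± 0.077 over WT arrays against -0.96 ± 0.13 over ATF3 KO arrays (SD, n = 4 each), a difference of 0.14 within the spread of arrays (two-sided exact permutation p = 0.143).

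A called rise was found on the R strand of chr1:137503023-137625604, an interval of 122582 bp. Its levels were -3.47, -3.74, -4.72 and -3.33 in WT and -2.13, -0.98, -1.66 and -1.26 in ATF3 KO. The 4 ATF3 KO arrays all lay above the 4 WT arrays, and the probe was detected on 1 WT and 4 ATF3 KO arrays. The difference was 2.30 (SE 0.33, limma adjusted p = 0.0346). The strand passed the detection criterion through the ATF3 KO arrays, where it is high, so a strand chosen in that way had to differ, and its WT values are not well above background on 3 of 4 arrays. With normexp background correction, which keeps dim signals nearer to the background, the difference was 0.64. It rests on 1 of 3 probes of that strand, since the other 2, not detected on 4 arrays, differed by 1.40 and 0.79. An interval that contains it, chr1:137482591-137625604, has detected probes on both strands, with differences of 0.05 on F and -0.18 on R that did not pass (limma adjusted p of 0.826 and 0.352).

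Another rise was on the R strand of chr2:94008913-94019798 (10886 bp). WT levels were -3.23, -3.16, -2.86 and -2.84, and ATF3 KO levels were -2.10, -1.42, -2.04 and -1.42. The groups did not overlap, and ATF3 KO replicates 2 and 4 were the highest. The difference was 1.28 (SE 0.19, limma adjusted p = 0.0398), and it was 0.48 with normexp (limma adjusted p = 0.0670). The other 4 probes of the strand were too dim to be tested and differed by 0.77 to 1.02, all in the same direction.

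The R strand of chr5:113594167-113645342 (51176 bp) was detected on every array. It lay at -1.72, -2.11, -1.87 and -1.40 in WT and at -0.92, -0.34, -0.91 and -0.28 in ATF3 KO. The groups were separate, again with ATF3 KO replicates 2 and 4 on top, and the difference was 1.16 (SE 0.20, limma adjusted p = 0.0495), or 0.71 with normexp. Only 1 of its 8 probes was detected on 4 arrays, and the other 7, which were not, differed by -1.01 to 0.90. The probe of a shorter R interval inside it, chr5:113609906-113622032, differed by -0.23 (limma adjusted p = 0.314). On the R strand of chr8:113968152-113973727 (5576 bp) the levels were -2.22, -2.15, -2.02 and -1.91 in WT and -1.39, -1.04, -1.37 and -1.10 in ATF3 KO, again without overlap. Its difference was 0.85 (SE 0.12, limma adjusted p = 0.0346), or 0.50 with normexp. The second detected probe of its 6 differed by 1.22 without passing (limma adjusted p = 0.114 with every probe tested), and the other 4, too dim to be tested, differed by -1.02 to 0.77. The F strand of that interval was not detected on 4 arrays by any of its 6 probes.

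Both called rises on chromosome 4 were under 1 log2 unit. The F strand of chr4:33338918-33378389 (39472 bp, 1 probe) lay at -3.51, -3.49, -3.47 and -3.30 in WT, where it was detected on 1 array, and at -2.90, -2.54, -2.30 and -2.66 in ATF3 KO, where it was detected on 3. The groups did not overlap. Its difference was 0.84 (SE 0.13, limma adjusted p = 0.0481), and 0.38 with normexp (limma adjusted p = 0.0768). This strand too met the criterion of 4 arrays mainly through the group where it is high. The R strand of chr4:138653689-138688814 (35126 bp) lay at -1.13, -1.17, -0.78 and -0.93 in WT and at -0.41, -0.01, -0.15 and -0.34 in ATF3 KO, with detection on all arrays and no overlap. Its difference was 0.78 (SE 0.13, limma adjusted p = 0.0495), or 0.50 with normexp. A shorter R interval within it, chr4:138657728-138687028, had 3 of 3 probes detected and a difference of 0.40 that did not pass (limma adjusted p = 0.158).

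The clearest fall was on the F strand of chr1:193923014-193923346, an interval of 333 bp. Its levels were -1.68, -1.73, -1.38 and -1.37 in WT and -3.44, -3.28, -3.63 and -3.02 in ATF3 KO. Each of the 4 WT arrays detected the signal and none of the ATF3 KO arrays did, and the groups were far apart relative to their spread. The fitted difference was -1.80 (SE 0.15, limma adjusted p = 0.00236). As the ATF3 KO values are not well above background they give only a bound, and WT was at least 3.11-fold higher. For the bound, the ATF3 KO value of an array is the lowest signal among its detected probes, or the probe's own where that is higher. A second probe of the strand gave a difference of -2.20 (limma adjusted p = 0.0181 with every probe tested), and the third was not detected on any array.

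The interval lies within chr1:193875525-193978800, which was described above for its R strand. There the 5 F probes were detected on no more than 3 arrays, and the R strand differed by -0.38 without passing (limma adjusted p = 0.124). The gene Atf3 is also on chromosome 1. Its distance to these intervals was not computed, because the gene table used here is of another build.

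The other fall was on the F strand of chr15:38205154-38206196 (1043 bp). WT levels were -3.04, -2.60, -2.70 and -2.38, and ATF3 KO levels were -5.23, -4.26, -4.58 and -4.52, with detection on 4 WT arrays and on none of ATF3 KO. The groups did not overlap, and the fitted difference was -1.96 (SE 0.21, limma adjusted p = 0.0127), with WT at least 1.43-fold higher as a bound. It rests on 1 of 3 probes. Both falls passed the detection criterion only through the 4 WT arrays, so a strand chosen in that way had to differ, and neither could be tested when a WT array was left out. With normexp the differences were -0.39 and -0.20 and did not pass (limma adjusted p of 0.0804 and 0.246).

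Complete switches of detection were rare. A signal on all 4 WT arrays and no ATF3 KO array was found for 20 of 15604 interval probes (0.128%), and for 38 of the 40077 other probes (0.0948%). The reverse was found for 4 interval probes (0.0256%) and 14 others (0.0349%).

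The interval strands next in line did not pass. The F strand of chr12:4234392-4236672 lay at -0.49, -0.65, -0.89 and -0.40 in WT and at 0.07, 0.15, -0.02 and 0.19 in ATF3 KO. The groups were separate, the difference was 0.70 (SE 0.12, limma adjusted p = 0.0503), and its 3 probes, all detected, differed by 0.54 to 0.70. A containing F interval, chr12:4133875-4243375, differed by 0.56 (limma adjusted p = 0.103). Among the strands named for their difference, it was the only one with several probes of which all were detected. The F strand of chr12:33606225-33638225 differed by 0.97 (SE 0.17, limma adjusted p = 0.0522), from -2.43 ± 0.15 in WT to -1.46 ± 0.35 in ATF3 KO (SD, n = 4 each).

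Intervals with the strongest signal showed no called difference. The 10 probes with the highest mean level belong to 9 strands, all detected on 8 arrays. The top probe and another of the 10 lie on the R strand of chr17:17481706-17482457, with levels of 9.51 ± 0.04 and 8.97 ± 0.02 in WT and 9.46 ± 0.17 and 8.87 ± 0.18 in ATF3 KO (SD, n = 4 each). The R strand of chr19:5801802-5802597 lay at 8.69 ± 0.10 in WT and 8.87 ± 0.18 in ATF3 KO, a difference of 0.18 (SE 0.11, limma adjusted p = 0.330). The R strand of chr4:136856064-136877219 differed by -0.19 (limma adjusted p = 0.310), the smallest p of the 9. The other 6 strands, at chr11:22681800-22707775, chr14:78924115-78938125, chr5:96591892-96606467, chr14:26973425-26986650, chr6:4841700-4847400 and chr7:108209996-108216032, differed by -0.10 to -0.04. WT and ATF3 KO overlapped in all 9. Differences this near 0 have no settled sign, since another percentile for scaling shifts all of them by a common amount.

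How far a difference seen by a probe was shared by its neighbours was examined next, as a description. Over 1323 strands with at least 2 detected probes, the difference between genotypes at the brightest and at the second brightest probe had a Pearson's r of 0.505 and a Spearman's rho of 0.512, and 70.6% had the same sign. Over the 501 intervals with both strands detected, the differences on F and R had an r of 0.0953 and a rho of 0.118, with the same sign in 54.5%. All these points share the same 8 arrays and their scaling. Of 12 strands whose brightest probe differed by more than 1 log2 unit, the second probe had the same sign in 10 and differed by more than 0.5 in 5.

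Whether genotype changed the balance of the strands was tested as F minus R within each array, where the scaling between arrays cancels. Of 501 intervals, 0 passed the limma test (0% called, lowest adjusted p 0.0566), and 77 had an unadjusted limma p under 0.05. Among these 77, the balance lay towards R in ATF3 KO in 49 and towards F in 28. The count was also open to single arrays, with 5 intervals passing once ATF3 KO replicate 1 was left out and 15 once replicate 3 was. It was 3 in the deposited log2 table and 3 when both strands had to be detected on all 8 arrays.

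The 6 intervals with the smallest p all had R higher and F lower in ATF3 KO. At chr5:113594167-113645342 the F levels were 0.87, 0.89, 0.69 and 1.10 in WT and 0.82, 0.59, 0.52 and 0.38 in ATF3 KO, while R rose as given above. F overlapped between the genotypes and R did not. F minus R changed by -1.47 (SE 0.25, limma adjusted p = 0.0566). The chr2:94008913-94019798 and chr4:138653689-138688814 intervals, both with a called rise on R, changed by -1.46 and -1.03 in F minus R, with F differences of -0.18 and -0.26 (limma adjusted p of 0.0566 each).

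On chromosome 12, both chr12:110738120-110769295 and chr12:110944403-110988678 were among the 6. The R levels of the latter were -2.09, -2.18, -2.17 and -1.90 in WT and -1.30, -0.10, -1.31 and -0.26 in ATF3 KO, and its F levels were 0.09, -0.01, 0.15 and 0.48 in WT and -0.07, -0.22, 0.07 and 0.06 in ATF3 KO. The 4 ATF3 KO arrays stood in 2 sets on R, with replicates 2 and 4 about 1 log2 unit above replicates 1 and 3, and all above WT. Replicates 2 and 4 were also the highest on R at chr12:110738120-110769295 and chr14:77006215-77063293. The same held for the called rises on chromosomes 1, 2, 5 and 8, but not for either on chromosome 4. Strands measured on the same arrays are not independent observations. F minus R changed by -1.56 (SE 0.31, limma adjusted p = 0.0566). At chr12:110738120-110769295, F differed by -0.39 and R by 0.78, and F minus R by -1.17 (SE 0.22, limma adjusted p = 0.0566). At chr14:77006215-77063293, R was 0.71 higher in ATF3 KO at its brightest probe but differed by 0.05 at the second brightest, F differed by -0.12, and F minus R changed by -0.83 (SE 0.19, limma adjusted p = 0.0956). In all 6 the values of F minus R did not overlap between the genotypes. The 6 were picked by smallest p, which favours such separation, so it adds no evidence. The share of all tested intervals without overlap is not given here.

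Noncoding RNAs with a gene symbol were counted for context. From a list of 70, 39 were on the array and 30 were tested, and none passed the limma test. The median difference was -0.02, against -0.11 over all features. A list score per array ran from -0.11 to -0.021 in WT and from 0.0038 to 0.090 in ATF3 KO. The scores did not overlap (two-sided exact permutation p = 0.0286). The summed level (log2) did overlap, from 8.21 to 8.27 in WT and from 8.05 to 8.34 in ATF3 KO. An unadjusted limma p under 0.05 was reached by 5 of the 30 in the higher direction and by 1 in the lower, beside 9.37% and 14.5% of all features. Meg3, an imprinted noncoding RNA, differed by 0.58 (SE 0.19, limma adjusted p = 0.148). Malat1 and Neat1, abundant RNAs of nuclear speckles and paraspeckles, differed by -0.06 and 0.03 (limma adjusted p of 0.736 and 0.813).

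Some lists of cell type markers lay apart between the genotypes and others did not. For neutrophils and for stroma and endothelium this depended on the measure. The summed level (log2) of the 14 neutrophil markers ran from 13.36 to 13.70 in WT and from 13.65 to 13.92 in ATF3 KO, with overlap. Their list score per array ran from -0.22 to -0.017 in WT and from 0.029 to 0.29 in ATF3 KO. The scores did not overlap (two-sided exact permutation p = 0.0286). Of the 14, 6 were higher and 0 lower at an unadjusted limma p under 0.05, beside 9.37% of all features in the higher direction. Their median difference was 0.21. All 15 B lineage genes on the list were detected and tested, none passed, and 11 were higher at an unadjusted limma p under 0.05, beside 9.37% of all features. Their summed level (log2) ran from 6.17 to 6.59 in WT and from 6.98 to 7.17 in ATF3 KO, without overlap. The 8 genes on the list for dendritic cells and MHC class II, of which Ccr7, a chemokine receptor, passed with a difference of 0.94 (limma adjusted p = 0.0495), had summed levels from 8.65 to 9.04 and from 9.11 to 9.64. The 8 stroma and endothelium genes went the other way, from 6.02 to 6.55 in WT and from 5.20 to 5.77 in ATF3 KO, with none passing. Their list score per array ran from 0.019 to 0.41 in WT and from -0.62 to 0.067 in ATF3 KO. These scores overlapped (two-sided exact permutation p = 0.0571). Summed levels overlapped between the genotypes for the lists of T and NK cells, monocytes and macrophages, erythroid cells, megakaryocytes and platelets, stem and progenitor cells, and eosinophils, basophils and mast cells. In the last list Gata2, a transcription factor of these cells and of progenitors, passed with a difference of 0.75 (limma adjusted p = 0.0495). In bulk samples fewer cells of a type and less RNA per cell cannot be told apart, and the part of these cells in the interval differences was not tested.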

How the data were processed

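RNA of 8 samples (4 WT, 4 ATF3 KO, grouped by sample title) was run on Agilent arrays in a single colour. Per the file headers, the deposited processed signal is a linear intensity, background-subtracted by Feature Extraction 10.9.1.1 (the submitters' processing notes give 10.10). The deposited table of the series holds log2 values of unstated scaling and was used only as an alternative.

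Control spots and outlier spots (98 to 159 per array) were left out, spots of a probe were averaged, and the 75th percentile of each array was subtracted from the log2 signal. Probes well above background on at least 4 of 8 arrays (27948) were kept, and the brightest stood for its gene, accession or interval strand (21251 features). Genotypes were compared with limma 3.58.1 in R 4.3.3, with Benjamini-Hochberg adjusted p under 0.05 over all features, and array measures with two-sided exact permutation tests. On simulated data for 21234 features, limma recovered 28% of 1.5-fold, 68% of 2-fold and 100% of 4-fold changes, with 13 of 160 calls false. For F minus R over 500 simulated pairs it recovered 52%, 74% and 100%, with 5 of 168 calls false. Simulated features were drawn independently of each other, whereas real features share arrays, so these rates need not hold for the data. The number of arrays limits the precision.

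Intervals named are, by rule, those called, the next by p with separate groups, the 10 brightest probes, and 6 pairs each for 1 strand detected, both detected, and smallest p of F minus R. The members and lists were chosen with earlier results of these data known. Symbols come from RefSeq accessions (GRCm38.p6), for names only. Neighbouring genes were not analysed here. Alternatives were normexp background correction (offset 50), 2 other scalings, other detection rules, every probe tested, other variance estimates, the deposited table, the replicate number as a block, and leaving out each array.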

Additional observations from a re-analysis of the deposited data

Results flagged for a closer look

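Of 106 groups of 4 arrays examined, those of the named strands and array measures, 1 held an array whose gap to the nearest other exceeded the critical share of the group's range in Dixon's test for 4 values. On the R strand of chr19:53517903-53540753, ATF3 KO replicate 2 lay at 3.09 and the other 3 ATF3 KO arrays between 3.27 and 3.29. Chance alone marks about 1 in 20 such groups.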

How the results depend on the processing

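The 8 called interval strands became 19 with normexp background correction (4 of the 8 among them), 4 after quantile normalization, 3 with the percentile over probes detected on all arrays, 15 in the deposited log2 table (7 among them), 1 without a filter on dim probes and 20 with trended, robust variances (7 among them). Leaving out an array gave 0 to 27. The causes were not tested. For F minus R the 0 intervals became 3 in the deposited table, 3 with detection on all 8 arrays, 1 without a filter, and 0 to 15 with an array left out. Detection by the looser mark moved the intervals with both strands to 914 and with 1 strand to 119, and the gap to NR probes to -0.418 points. Taking any probe of a strand in place of the brightest, an alternative chosen after seeing the data, gave 504 and 389.

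Replicate numbers did not pair the samples (correlations of deviations 0.191, -0.133, -0.269 and 0.182). Under the replicate block, 9 interval strands passed, 4 of them among the 8, and 0 strand balances. The difference in detected share stayed at -2.10 points (exact paired permutation p = 0.375).

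Of the called strands, chr4:33338918-33378389 lost its call in 11 of 12 alternatives, chr4:138653689-138688814 in 12 of 17, chr5:113594167-113645342 in 11 of 17, chr2:94008913-94019798 in 9 of 16, chr1:137503023-137625604 in 8 of 16, chr8:113968152-113973727 in 8 of 17, chr15:38205154-38206196 in 2 of 12 and chr1:193923014-193923346 in 1 of 12. None changed sign. In the deposited table the 6 rises were 0.63, 0.43, 0.69, 0.445, 0.25 and 0.505, in the order of the report, and every one but chr4:33338918-33378389 still passed.

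Among the named strands, sign changed only in uncalled bright ones. With the percentile over detected probes, a common shift, the differences became 0.10 at chr17:17481706-17482457, 0.10 at chr11:22681800-22707775, 0.078 at chr14:78924115-78938125, 0.060 at chr5:96591892-96606467, 0.048 at chr14:26973425-26986650, 0.10 at chr6:4841700-4847400 and 0.11 at chr7:108209996-108216032. With an array left out they ran from -0.12 to 0.0059, -0.11 to 0.0090, -0.22 to 0.0028, -0.12 to 0.021 and -0.098 to 0.027 at the strands on chromosomes 17, 11, 5, 6 and 7. The gap of interval strands to all features stayed positive, from 0.04 to 0.20.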
